A study of Mus musculus with 20 samples.

Results

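Collagens are the main structural proteins of the extracellular matrix, and the uterus carries them in its stroma, its muscle and the basement membranes under its epithelium and around its vessels. Collagen genes were taken by name, as every gene whose symbol was Col, a number, a and a number. This gave 44 of the 45777 genes listed, of which 40 were among the 18706 genes tested. By class, 11 of the 44 genes were fibrillar, 6 basement membrane and 6 type VI, and the other 21 belonged to smaller classes. A collagen molecule is a triple helix of chains, each chain the product of its own gene, so chains of a shared molecule are described together. Fibrillar collagens give tissue its tensile strength, type IV collagens form the sheets of basement membranes, and type VI collagens form fine beaded filaments around cells. In pregnancy, the stroma around an implanting embryo remodels this matrix as it decidualizes.

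RNA was measured in 1 uterine horn of each of 20 pregnant B6D2F1 females aged 8 to 12 weeks, 5 mice in each of 4 groups, all collected at 18:00 on day 3.5 after mating, before the embryos attach. Control mice received neither RU486 nor cells. IF mice, the model of implantation failure, were injected under the skin with 3 mg/kg RU486, which blocks the progesterone and glucocorticoid receptors, at 9:00 on day 3.5, so the drug had acted for hours and not days. PBMC mice received the same RU486 and, on day 1.5, 50000 blood mononuclear cells of other mice into each horn after 24 h of culture. PBMC-hCG mice were treated alike with cells cultured with 5 IU/mL hCG. No medium-only group was analysed here, so the injection and the cells cannot be told apart, and the injected cells themselves may be part of the sampled tissue of both PBMC groups. Values were in TPM, a scale that corrects transcript counts for length and fixes their total, here 999989 to 999999 per library. The read depth behind each value is therefore unknown, and no counting error can be given. Differences are log2 fold changes of TPM + 0.1 with their standard error (SE) from limma, with 5 mice in each group. A gene is said to have risen or fallen where its p-value, adjusted over all 18706 genes, was under 0.05.

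The libraries held the transcripts of a whole uterine wall. All 7 stromal markers were above 0 TPM in every library, the most abundant being Vim at a mean of 1721 TPM. All 7 myometrial markers were present too (Acta2, 1721 TPM), as were the 7 epithelial (Krt18, 337 TPM) and the 7 endothelial markers (Pecam1, 162 TPM). Control replicate 2 stood apart. Its log2 values correlated with those of the other control mice at 0.961 to 0.965, where mice of a group reached 0.992. Among the 14 collagens with a mean of at least 100 TPM, it was the lowest of the 5 control mice in 13. The summed TPM of its 4 adipocyte markers was 329.8, beside 3.43 to 11.8 in the other control mice, with Fabp4 at 242 TPM and Adipoq, Plin1 and Cidec at 0 in some of the 20 libraries. That sum was 65.7 TPM in IF replicate 5, 23.2 TPM in PBMC replicate 4 and at most 11.8 TPM in all other mice. In control replicate 2, the 5 cell cycle markers summed to 7.17 TPM beside 74.6 to 177 in the other control mice, its 7 epithelial markers to 1029.6 beside 563 to 682, its 7 myometrial markers to 3798 beside 5017 to 8013, and its 7 stromal markers to 2009 beside 2173 to 2429.6. Of the stromal markers, Vim (1089 beside 1262 to 1553 TPM), Pdgfra and Nr2f2 were lowest in control replicate 2. Pdgfrb and Hoxa10 (281 beside 250 to 257 TPM) were highest, and Hand2 and Hoxa11 lay among the other control mice. IF replicate 3 was the lowest IF mouse in 13 of the same 14 collagens, PBMC-hCG replicate 4 the lowest of its group in 12 and PBMC replicate 4 in 10. PBMC-hCG replicate 1 was the highest of its group in Col6a1, Col6a2 and Col6a4. The part of these libraries' cell make-up in the collagen levels was not tested, and in whole tissue, fewer cells of a type and less RNA per cell cannot be told apart. For genes whose results rest on control replicate 2 or IF replicate 3, values without them are given below.

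Together, the 44 genes made up 0.468 to 1.37% of all TPM, with a median of 1.15% over the 20 mice. Fibrillar genes were the largest share (median 0.630%), followed by type VI (0.284%), basement membrane (0.0923%) and the other collagens (0.0719%). The most abundant was Col3a1 (NCBI gene 12825, chr1:45311538-45349706), the only chain of type III collagen, a fibrillar collagen of distensible organs. Its values in control replicates 1 to 5 were 2990.1, 928, 3113, 2997 and 3026 TPM, and in IF mice 2423, 2822, 1665, 3020.5 and 2488 TPM. In PBMC mice it was at 2843, 2961, 2789, 2525 and 2381 TPM and in PBMC-hCG mice at 2464, 2373, 2564, 1822 and 2259 TPM. Control replicate 2 lay far below all the others. All PBMC and PBMC-hCG mice, and all IF mice but replicate 4, lay below the other 4 control mice. Col1a2 (NCBI gene 12843, chr6:4505618-4541543) and Col1a1 (NCBI gene 12842, chr11:94936224-94953042) encode the chains of type I collagen. Col1a2 was at 1842, 759.8, 1884, 1752 and 2029 TPM in control mice and 1498, 1729.6, 1375, 1903 and 1725 TPM in IF mice, and at 1802, 1879.6, 1753, 1599 and 1417 TPM in PBMC mice and 1714, 1449, 1620.1, 1385 and 1459 TPM in PBMC-hCG mice. Col1a1 was at 1899.98, 665, 1879, 1718 and 2069 TPM in control mice and 1464, 1669, 1204, 1951 and 1711 TPM in IF mice, and at 1771, 1893, 1678, 1422 and 1464 TPM in PBMC mice and 1653, 1273, 1444, 1185 and 1296 TPM in PBMC-hCG mice. For both genes the ranges of all 4 groups overlapped, those of control and PBMC-hCG mice only through control replicate 2. Col2a1, Col9a1 and Col10a1, known from cartilage, and Col19a1 were at 0 in at least 11 of the 20 mice, with means of at most 0.0564 TPM, and were not tested. The means of the 40 tested collagens over the 20 mice ran from 0.471 TPM in Col25a1 to 2523 TPM in Col3a1.

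**Figure D1:**
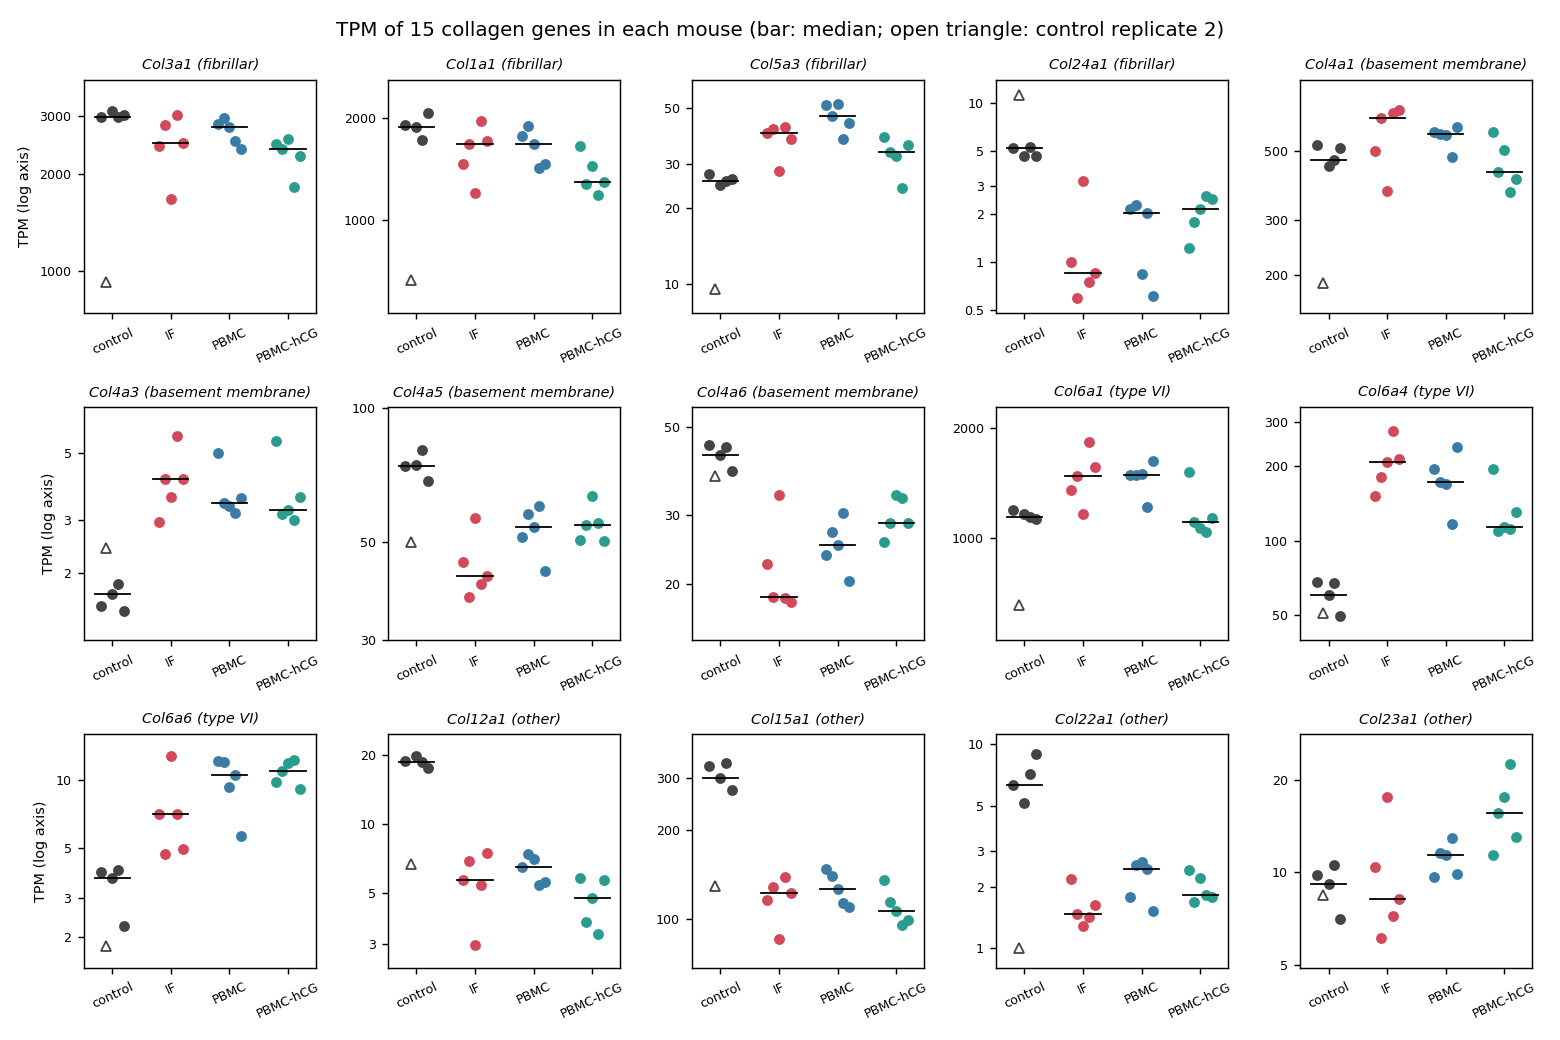
TPM of 15 collagen genes (log axes) by group, with 1 point for each of the 5 mice, a bar at the group's median and an open triangle for control replicate 2. Col6a4 lay at 49.5 to 67.9 TPM in control mice and at 151 to 277 TPM in IF mice, while Col3a1 was at 928 TPM in control replicate 2 and at 1665 TPM or more in every IF mouse.

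RU486 was compared with no treatment first, the question being what the drug alone did to the uterus on the day it was given. Collagens moved in both directions. In IF mice, 4 of 6 type VI chains rose, the basement membrane chains Col4a3 and Col4a4 rose while Col4a5 and Col4a6 fell, and Col12a1, Col15a1, Col22a1 and Col24a1, minor collagens of fibrils and basement membrane zones, fell by more than 1 on the log2 scale. The abundant chains of type I and type III collagen were not called. In all, 17 of the 40 tested collagens passed adjustment in limma, 10 higher and 7 lower in IF mice, beside 21.9% of all genes (13.4% higher and 8.53% lower). The median log2 fold change was 0.17 for the collagens and 0.022 for all genes. Without control replicate 2, Col3a1, Col1a1, Col1a2, Col6a3 and Col14a1 turned from above to below 0. The collagens in the middle of the order were then Col7a1 and Col27a1, at 0.054 and 0.082. All medians against control given below, those of classes too, include that mouse. In 9 collagens the IF and control mice did not overlap, 7 higher and 2 lower, beside 12.8% of all genes (8.55% and 4.27%). By the study's own rule, which asks for a 2-fold difference and an unadjusted p under 0.05, 8 collagens were called, 3 higher and 5 lower, beside 4.03% of all genes (2.12% higher and 1.91% lower). Without control replicate 2, 18 collagens were called, 8 higher and 10 lower, beside 26.8% of all genes (14.4% and 12.4%), and 15 of the 17 calls were kept. Endothelial markers rose in 6 of 7 genes, their sums being 497, 407, 480.5, 493 and 400.4 TPM in control and 594, 591, 638, 570.3 and 552 TPM in IF mice. Of the 7 epithelial markers 5 rose and 1 fell, of the 7 stromal markers 1 rose and 2 fell, and of the 7 myometrial markers 1 fell. Of the 5 pericyte markers 3 rose and 1 fell, of the 6 macrophage markers 2 rose, 1 lymphocyte marker rose, and of the 4 markers of ovary and oviduct 1 fell. The part of these shifts in the collagen results was not tested.

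**Figure D2:**
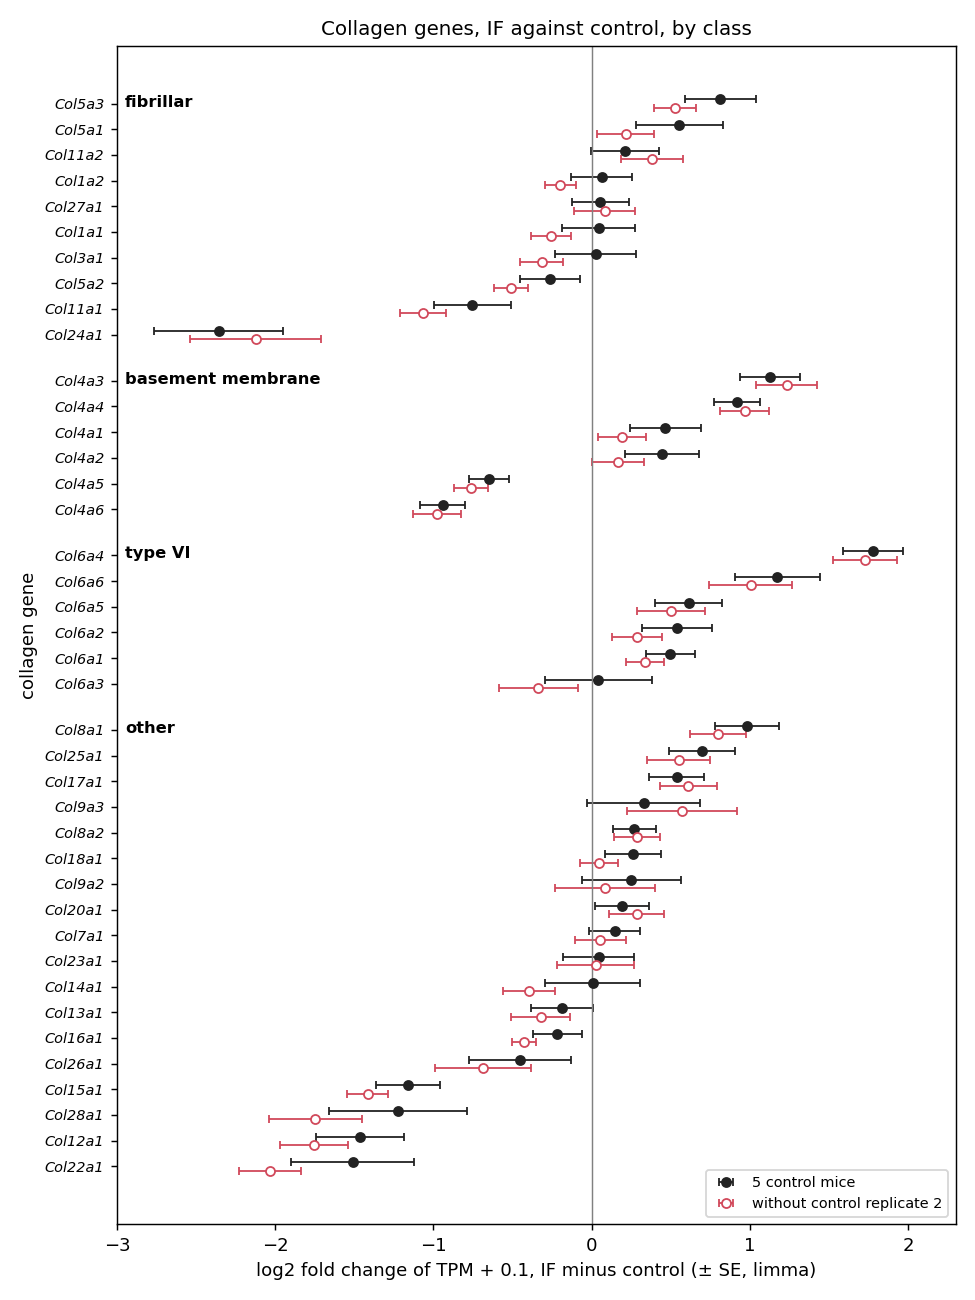
Log2 fold change of TPM + 0.1 between IF and control mice (x axis, with bars of 1 SE from limma) for the 40 tested collagens (y axis, by class), with all 5 control mice (filled) and without control replicate 2 (open). Col6a4 lay farthest to the right at 1.78 and 1.73, while Col3a1 moved from 0.025 to -0.32 when that mouse was left out.

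Of the 6 type VI collagens, 4 rose in IF mice (Col6a1, Col6a4, Col6a5 and Col6a6) and none fell, with a class median of 0.58. Type VI filaments are built from Col6a1, Col6a2 and a long chain, which is Col6a3 or its relatives Col6a4, Col6a5 and Col6a6. The rise of Col6a4 (NCBI gene 68553, chr9:105990318-106096828) was the largest of all tested collagens. In control mice it was at 67.9, 51.2, 60.1, 67.4 and 49.5 TPM, and in IF mice at 151, 181, 207, 277 and 213 TPM. Every IF mouse was far above the highest control mouse (log2 fold change 1.78, SE 0.19, adjusted p = 2.64e-06 in limma). Without control replicate 2 its fold change was 1.73. Col6a6 (NCBI gene 245026, chr9:105689417-105828246) was at 3.89, 1.83, 3.66, 3.99 and 2.25 TPM in control mice and 7.10, 4.68, 12.9, 7.11 and 4.94 TPM in IF mice. All IF mice were above all control mice, and IF replicate 3 was the highest (log2 fold change 1.17, SE 0.27, adjusted p = 0.00404 in limma). The principal chains were far more abundant. Col6a1 (NCBI gene 12833, chr10:76708792-76726044) was at 1195, 659, 1164, 1142 and 1127 TPM in control mice and 1353, 1477, 1162, 1823 and 1563 TPM in IF mice. Only IF replicate 3 lay within the control range (log2 fold change 0.50, SE 0.15, adjusted p = 0.0255 in limma). The fold change was 0.34 without control replicate 2 (adjusted p = 0.0445 in limma), and the call ended without IF replicate 4 (log2 fold change 0.42, adjusted p = 0.0704 in limma) or IF replicate 5 (0.47, adjusted p = 0.0570) or with only these 2 groups fitted (adjusted p = 0.0894). Col6a2 (NCBI gene 12834, chr10:76595756-76623630), its partner, was at 1417, 549, 1333, 1281 and 1256 TPM in control mice and 1447, 1693, 1137, 2112 and 1838 TPM in IF mice. It did not pass (log2 fold change 0.54, SE 0.22, adjusted p = 0.0906 in limma), but did without IF replicate 3 (0.66, adjusted p = 0.0440), while without control replicate 2 its fold change was 0.29 (adjusted p = 0.204). Col6a3, the usual long chain, chosen for mention after its values were seen, was at 57.4 to 221 TPM in control and 98.1 to 262 TPM in IF mice (log2 fold change 0.041, adjusted p = 0.950 in limma). Its direction turned without control replicate 2 (-0.34) or IF replicate 4 (-0.12). Col6a5 was scarce, at 0.348 to 0.778 TPM in control and 0.516 to 1.24 TPM in IF mice. Its log2 fold change was 0.61, and its call ended without control replicate 2 (0.50, adjusted p = 0.0958 in limma).

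The basement membrane class divided into pairs. Col4a1 and Col4a2 form the type IV collagen found in all basement membranes, Col4a3, Col4a4 and Col4a5 form the network best known from the kidney glomerulus, and Col4a5 and Col4a6 form a network known from smooth muscle and some epithelia. Of the 6 genes, 2 rose (Col4a3, Col4a4) and 2 fell (Col4a5, Col4a6), with a class median of 0.46. That median lay between Col4a2 and Col4a1, which dropped from 0.44 and 0.47 to 0.17 and 0.19 without control replicate 2. Col4a3 (NCBI gene 12828, chr1:82586921-82722059) was at 1.54, 2.41, 1.70, 1.83 and 1.49 TPM in control mice and 2.94, 4.09, 3.57, 5.67 and 4.10 TPM in IF mice. The groups did not overlap (log2 fold change 1.13, SE 0.19, adjusted p = 0.000325 in limma). Col4a4 (NCBI gene 12829, chr1:82448419-82587034) was at 2.56, 2.82, 2.31, 2.66 and 1.94 TPM in control mice and 3.66, 4.69, 4.88, 5.87 and 4.64 TPM in IF mice. These did not overlap either (log2 fold change 0.92, SE 0.15, adjusted p = 0.000198 in limma), and Col4a4 was chosen as the partner of Col4a3 after its values were seen. In the opposite direction, Col4a6 (NCBI gene 94216, chrX:141165403-141474095) was at 45, 37.6, 42.6, 44.6 and 38.7 TPM in control mice and 22.6, 18.6, 33.6, 18.5 and 18 TPM in IF mice. Each IF mouse was below each control mouse, IF replicate 3 being the nearest to them (log2 fold change -0.94, SE 0.14, adjusted p = 0.000113 in limma). Col4a5 (NCBI gene 12830, chrX:141475370-141689236) was at 74, 49.8, 74.4, 80.6 and 68.4 TPM in control mice and 45, 37.4, 56.4, 40.2 and 41.9 TPM in IF mice. Control replicate 2 lay below IF replicate 3, and otherwise the groups were apart (log2 fold change -0.65, SE 0.13, adjusted p = 0.00114 in limma). Col4a5 and Col4a6 thus stood at -0.76 and -0.98 without control replicate 2, and Col4a3 and Col4a4 at 1.23 and 0.97, all 4 still called. The abundant pair was not called. Col4a1 (NCBI gene 12826, chr8:11198423-11312889) was at 525, 189, 449, 469.9 and 511 TPM in control mice and 499.8, 639.8, 373, 664 and 679.7 TPM in IF mice, with a log2 fold change of 0.47 (SE 0.23, adjusted p = 0.156 in limma). Col4a2 (NCBI gene 12827, chr8:11312805-11449287) was at 342, 119, 289.7, 295 and 319 TPM and 318, 407, 222, 414 and 436 TPM in turn (log2 fold change 0.44, SE 0.24, adjusted p = 0.196 in limma). In both, control replicate 2 was the lowest of all 10 mice, and without it the fold changes were 0.19 and 0.17.

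The pairs that moved together are also neighbours in the genome. In the GENCODE annotation of GRCm38, Col4a4 (minus strand, chr1:82448423-82586849) and Col4a3 (plus strand, chr1:82586921-82722059) start 71 bases apart and are read away from each other. Col4a6 (minus strand, chrX:141165403-141474076) and Col4a5 (plus strand, chrX:141475385-141689234) start 1308 bases apart. Col4a1 (minus strand) and Col4a2 (plus strand) on chromosome 8 overlap at their starts, with a distance of -22 bases. Of the long type VI chains, Col6a4, Col6a5 and Col6a6 lie side by side on chromosome 9, all on the minus strand, with 28810 bases between Col6a4 and Col6a5 and 27917 between Col6a5 and Col6a6. RefSeq promoters (GRCm38.p6) were available for 35 of the 44 collagens, in 38 windows of 200 bases that run from 250 to 51 bases before the start. The bases nearer the start were not searched because some gene models place exons there, yet 13 of the 38 windows still overlap exons of the same or another gene. On both strands, TATAAA, the letters of the TATA box, was found in 4 of the 38 windows and in 9.14% of all 32841 windows, CCAAT in 10 and in 28.4%, and GGGCGG (GC box) in 18 and in 24.6%. As the bases next to the start were not searched, the TATAAA count does not show which promoters have a TATA box. TGTTCT, a part of the elements that progesterone and glucocorticoid receptors bind, was found in 2 of the 38 windows and in 13.2% of all. The windows of Col4a6 (chrX:141474127-141474326, minus strand) and Col4a5 (chrX:141475169-141475368, plus strand) are shown because both genes fell and their starts face away from the same short stretch, with each match in capitals, 5′ to 3′. The Col4a5 window held 1 CCAAT, 196 bases before the start, and the Col4a6 window held none of these letters. A match describes the sequence only, and a lack of matches says nothing of the bases that were not searched.
Col4a6: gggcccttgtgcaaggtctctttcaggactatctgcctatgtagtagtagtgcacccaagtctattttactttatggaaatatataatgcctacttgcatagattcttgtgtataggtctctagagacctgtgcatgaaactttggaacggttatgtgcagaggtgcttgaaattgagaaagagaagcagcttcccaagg
Col4a5: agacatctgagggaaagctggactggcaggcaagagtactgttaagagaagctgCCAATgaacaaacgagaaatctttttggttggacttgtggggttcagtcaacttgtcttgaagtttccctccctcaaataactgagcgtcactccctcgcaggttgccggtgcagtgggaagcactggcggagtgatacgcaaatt

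Among the 10 tested fibrillar collagens, Col5a3 rose and Col11a1 and Col24a1 fell in IF mice, with a class median of 0.05. These are minor collagens, which are built into fibrils of types I and III or II and are known to affect their diameter. Col24a1 (NCBI gene 71355, chr3:145292472-145552013) was at 5.23, 11.3, 4.64, 5.31 and 4.65 TPM in control mice and 1.01, 0.597, 3.23, 0.751 and 0.850 TPM in IF mice. The groups did not overlap, but control replicate 2 was far above the other control mice and IF replicate 3 far above the other IF mice (log2 fold change -2.36, SE 0.41, adjusted p = 0.000417 in limma). The fold change was -2.12 without control replicate 2 and -2.74 without IF replicate 3. Col5a3 (NCBI gene 53867, chr9:20770050-20815117), a chain of type V collagen, was at 27.4, 9.53, 24.7, 25.7 and 26.2 TPM in control mice and 40.0, 41.4, 28.2, 42 and 37.7 TPM in IF mice. All IF mice were above all control mice (log2 fold change 0.81, SE 0.22, adjusted p = 0.0132 in limma), and without control replicate 2 the fold change was 0.53 (adjusted p = 0.00577), while the call ended with only these 2 groups fitted (adjusted p = 0.0718). Col11a1, at 4.0 to 14.4 TPM in control and 4.73 to 6.74 TPM in IF mice, is known mainly from cartilage (log2 fold change -0.75, SE 0.24, adjusted p = 0.0330 in limma). Its call ended (adjusted p = 0.0561 to 0.0949, log2 fold change -0.76 to -0.61) without control replicate 1, 3, 4 or 5 or IF replicate 1, 3 or 5, with only these 2 groups fitted (adjusted p = 0.122) and where genes above 0 TPM in at least 1 library were tested (0.0530), while without control replicate 2 the fold change was -1.07 (adjusted p = 3.79e-05). The chains that make up most of the fibrils were not called. Log2 fold changes were 0.025 for Col3a1 (SE 0.26, adjusted p = 0.960 in limma), 0.043 for Col1a1 (SE 0.23, adjusted p = 0.923) and 0.064 for Col1a2 (SE 0.19, adjusted p = 0.858). Their direction rested on control replicate 2, without which they were -0.32 (adjusted p = 0.0910 in limma), -0.26 (0.141) and -0.20 (0.148). Col3a1 also turned without IF replicate 2 (-0.028) or IF replicate 4 (-0.052) or with median-of-ratios scaling (-0.0057), and Col1a1 without IF replicate 4 (-0.033). Col5a2, a chain of type V collagen chosen after its values were seen, was at 251, 103, 243, 241 and 245 TPM in control mice and 166, 196, 128, 201 and 179 TPM in IF mice. Apart from control replicate 2, all control mice were above all IF mice, and it was called only when that mouse was left out (log2 fold change -0.26 with it and -0.51 without it, adjusted p = 0.364 and 0.00187 in limma).

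In the remaining classes, 3 of 18 tested collagens rose (Col8a1, Col17a1 and Col25a1) and 3 fell (Col12a1, Col15a1 and Col22a1), with a median of 0.096. Col22a1 (NCBI gene 69700, chr15:71795795-72150979), known from tissue junctions such as those of muscle and tendon, was at 6.32, 1.01, 5.16, 7.18 and 8.97 TPM in control mice and 2.20, 1.47, 1.28, 1.43 and 1.63 TPM in IF mice. Control replicate 2 was below every IF mouse and the other 4 control mice above them all (log2 fold change -1.51, SE 0.39, adjusted p = 0.00891 in limma). Col12a1 (NCBI gene 12816, chr9:79598987-79721141), which coats the surface of type I fibrils, was at 18.7, 6.70, 19.7, 18.7 and 17.5 TPM in control mice and 5.70, 6.88, 2.97, 5.46 and 7.51 TPM in IF mice. For Col12a1, control replicate 2 lay within the IF range and the other 4 control mice above it (log2 fold change -1.46, SE 0.28, adjusted p = 0.000849 in limma). Without that mouse the fold changes were -2.04 for Col22a1 (adjusted p = 9.32e-07 in limma) and -1.76 for Col12a1 (adjusted p = 1.19e-05). With only these 2 groups fitted, the call for Col22a1 ended (adjusted p = 0.0681 in limma). Col15a1 (NCBI gene 12819, chr4:47207655-47313167), which links basement membranes to the matrix below, was at 332, 129, 300.2, 339.9 and 275 TPM in control mice and 116, 128, 85.3, 138 and 122 TPM in IF mice. Control replicate 2 was within the IF range (log2 fold change -1.16, SE 0.20, adjusted p = 0.000443 in limma, and -1.41 without control replicate 2). Its relative Col18a1 (NCBI gene 12822, chr10:77052178-77166530), the source of the fragment endostatin, was at 339.7, 141, 303, 319 and 225 TPM in control mice and 335, 298, 241, 306 and 349 TPM in IF mice. The ranges overlapped (log2 fold change 0.26, SE 0.18, adjusted p = 0.328 in limma), and the fold change was 0.049 without control replicate 2. Col8a1, a network-forming collagen of vessels, was at 0.964 to 2.68 TPM in control and 2.82 to 4.91 TPM in IF mice (log2 fold change 0.98, SE 0.20, adjusted p = 0.00183 in limma). Col17a1, part of hemidesmosomes, and Col25a1, a membrane collagen known from neurons, were at most 1.11 and 0.724 TPM in any of the 20 mice. Col25a1, at a log2 fold change of 0.70, was no longer called without control replicate 2 (0.55, adjusted p = 0.0512 in limma). Col16a1 and Col28a1, chosen after their values were seen, were not called with all mice but were without that mouse, at -0.43 (adjusted p = 0.000439 in limma) and -1.75 (adjusted p = 0.000286). With that mouse kept, Col28a1 was also called without control replicate 5 (-1.37, adjusted p = 0.0436 in limma), with a pseudocount of 1 (-0.86, 0.0299), with median-of-ratios scaling (-1.25, 0.0423) and among genes with a mean of at least 1 TPM (-1.22, 0.0474). Of 5 markers of striated muscle, Myh1, Myh2 and Myh4 were at 0 in all 20 libraries, and the summed TPM was nearly all Acta1, which was at 334, 116, 347, 350.1 and 369.9 TPM in control mice and 97.4, 85.6, 74.3, 134 and 105 TPM in IF mice. Control replicate 2 was thus low in Acta1 as in Col22a1, Col12a1 and Col15a1, and what this has to do with the fall of these collagens was not tested.

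Genes that act on collagens moved unevenly. Beside the counts of these lists, 13.4% of all genes were called higher and 8.53% lower. Of 32 tested genes that modify, fold, cut or cross-link collagen chains, 4 rose and 3 fell in IF mice (median log2 fold change -0.076). Lox, the enzyme that starts cross-linking, rose from 53.9 to 77.9 TPM in control to 132 to 252 TPM in IF mice (log2 fold change 1.63, SE 0.14, adjusted p = 2.64e-07 in limma). P4ha2, a prolyl 4-hydroxylase subunit that stabilizes the helix, fell from 28.4 to 76.1 to 15 to 31 TPM (log2 fold change -1.24, SE 0.24, adjusted p = 0.000936 in limma). Of the enzymes that add galactose to collagen, Colgalt2 rose (0.89, adjusted p = 0.0135 in limma) and Colgalt1 fell (-0.38, adjusted p = 0.00762). Of 10 proteoglycans that bind fibrils, 3 rose and none fell (median 0.15). Dcn, decorin, was at 1653 to 1978 TPM in control and 2688 to 3577 TPM in IF mice with no overlap (log2 fold change 0.84, SE 0.09, adjusted p = 1.98e-06 in limma), and Lum, lumican, at 214 to 504 and 502 to 832 TPM (log2 fold change 0.88, SE 0.20, adjusted p = 0.00371 in limma). Collagen receptors rose in 7 of 12 genes and fell in none (median 0.32). Among them, Itga11, an integrin chain of fibroblasts, was at 0.999 to 3.41 and 3.04 to 9.74 TPM (log2 fold change 1.49, SE 0.32, adjusted p = 0.00267 in limma), and Ddr2, a receptor kinase for fibrillar collagen, at 35.5 to 53.6 and 72 to 101 TPM (log2 fold change 0.87, SE 0.10, adjusted p = 7.26e-06 in limma). Of 16 basement membrane partners, 4 rose and 1 fell (median 0.13). Pxdn, which cross-links type IV collagen, rose from 56.4 to 96.9 to 129 to 148 TPM (log2 fold change 0.76, SE 0.11, adjusted p = 5.91e-05 in limma), Nid1, which joins it to laminin, rose by a log2 fold change of 0.51 (adjusted p = 0.0104 in limma), and the laminin chain Lamb1 fell (-0.20, adjusted p = 0.0348). Of 5 tested collagen-cutting proteases, Mmp14 rose (log2 fold change 0.43, SE 0.04, adjusted p = 3.44e-07 in limma) and Ctsk fell (log2 fold change -0.36, SE 0.08, adjusted p = 0.00394 in limma).

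Chains of a shared molecule kept their proportions in some pairs and not in others. The ratio of Col1a1 to Col1a2 in TPM was 0.876 to 1.03 in control, 0.875 to 1.03 in IF, 0.889 to 1.03 in PBMC and 0.855 to 0.965 in PBMC-hCG mice. Col4a1 to Col4a2 was 1.54 to 1.60, 1.56 to 1.69, 1.57 to 1.66 and 1.61 to 1.72 in the same order, so that the 20 mice, control replicate 2 included, stayed within a narrow band. Within that band, all PBMC-hCG mice were above all control mice. Col6a1 to Col6a2 was 0.844 to 1.20, 0.850 to 1.02, 0.883 to 0.967 and 0.903 to 1.06, the highest value being that of control replicate 2. For type V collagen, Col5a1 to Col5a2 was 0.635, 0.451, 0.593, 0.585 and 0.668 in control mice and 0.964, 1.05, 0.834, 1.11 and 1.20 in IF mice. All IF mice were above all control mice. In PBMC mice this ratio was 0.977, 0.961, 0.924, 0.826 and 0.993 and in PBMC-hCG mice 0.923, 0.727, 0.761, 0.740 and 0.793. Both lay above the control range. Among long type VI chains, Col6a4 was at 0.224 to 0.893 of the Col6a3 level in control mice, the highest being control replicate 2, and at 0.964 to 2.11 in IF, 0.938 to 1.16 in PBMC and 1.08 to 1.52 in PBMC-hCG mice. Col4a5, which pairs with either set of partners, was at 48, 20.7, 43.7, 44.1 and 45.9 times the Col4a3 level in control mice and at 15.3, 9.14, 15.8, 7.08 and 10.2 times in IF mice. In PBMC mice it was 10.2, 16.9, 16.1, 19 and 12.2 times and in PBMC-hCG mice 9.21, 17.4, 19.6, 18.4 and 14.1 times that level. Every control mouse was above every mouse given RU486 in this ratio. Since Col4a5 was called lower and Col4a3 higher in IF mice, the ratio adds no support to those calls. Col4a5 to Col4a6 was 1.32 to 1.81 in control and 1.68 to 2.32 in IF mice, and Col4a3 to Col4a4 0.603 to 0.852 and 0.732 to 0.967. The ratios of Col6a4 to Col6a3, Col4a5 to Col4a3, Col4a5 to Col4a6 and Col4a3 to Col4a4 were added to the pairs planned first. Ratios were not tested.

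**Figure D3:**
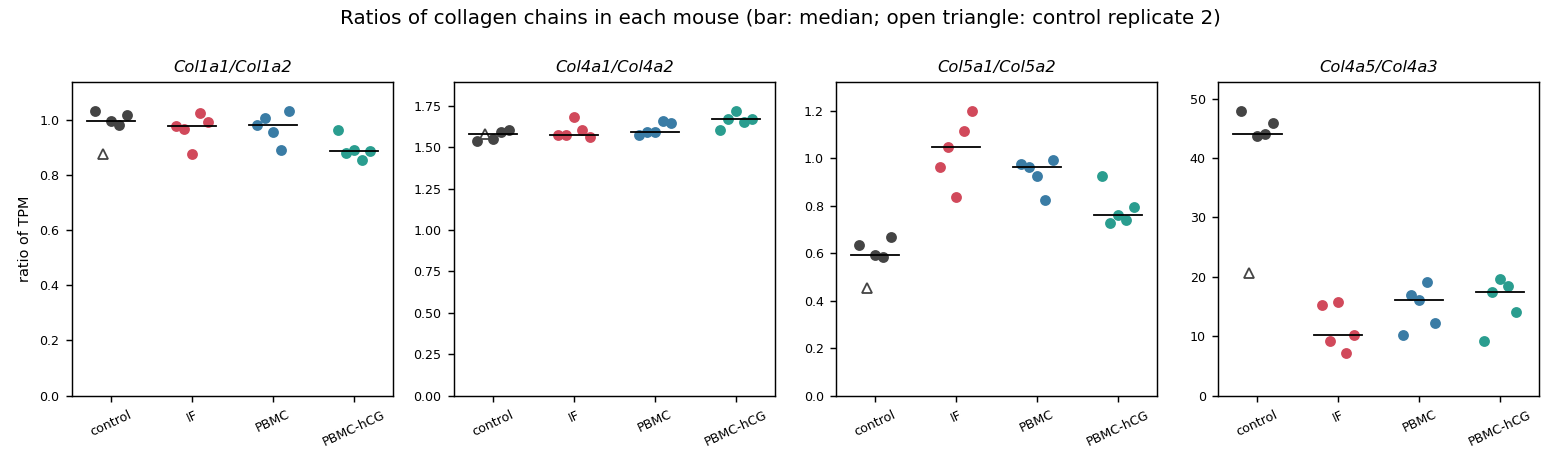
Ratio of the TPM of 4 pairs of collagen chains (y axes, from 0) in each mouse, by group, with a bar at the median and an open triangle for control replicate 2. Col5a1/Col5a2 was at most 0.668 in control mice and at least 0.727 in all others, while Col4a1/Col4a2 stayed between 1.54 and 1.72.

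Next, PBMC mice were compared with IF mice, to ask what cells without hCG did in uteri under RU486. The comparisons with IF share the same IF mice, and those with control the same control mice. No collagen was called. The count was 0 of 40 in limma, beside 0% of all genes, and at an unadjusted p under 0.05 it was 1 of 40 beside 6.79% of all genes. The median log2 fold change was 0.11 for collagens and 0.02 for all genes. By class it was 0.12 for fibrillar, -0.0092 for basement membrane, -0.0095 for type VI and 0.20 for other collagens. The 1 gene was Col4a5, which was at 51.1, 57.6, 53.8, 60.1 and 43 TPM in PBMC mice, beside 37.4 to 56.4 TPM in IF and 49.8 to 80.6 TPM in control mice. All PBMC mice but replicate 5 were above all IF mice but replicate 3 (log2 fold change 0.27, SE 0.13, adjusted p = 0.724 in limma). Its neighbour Col4a6 was at 23.8, 27.2, 25.2, 30.3 and 20.4 TPM (log2 fold change 0.22, adjusted p = 0.783 in limma). Of the type VI chains, Col6a4 was at 195, 172, 169.5, 117 and 238 TPM and Col6a6 at 12.1, 12, 9.34, 10.6 and 5.68 TPM in PBMC mice. Both overlapped the IF mice, with log2 fold changes of -0.21 (SE 0.19, adjusted p = 0.830 in limma) and 0.48 (SE 0.27, adjusted p = 0.756). With a mouse left out, that of Col6a4 ran from -0.33 to -0.072. Col6a1 was at 1489, 1484, 1501, 1219.7 and 1625 TPM and Col6a2 at 1687, 1559, 1625, 1261 and 1729 TPM, with PBMC replicate 4 the lowest in each. For the type IV chains Col4a1 and Col4a2, the values were 576, 570.2, 564, 481 and 599.5 TPM and 366, 358, 354, 289.7 and 365 TPM. Here again replicate 4 was the lowest, and the log2 fold changes of these 4 chains lay between -0.043 and -0.0021. Col12a1 at 6.53, 7.41, 7.05, 5.41 and 5.62 TPM, Col15a1 at 147, 139, 126, 113 and 109 TPM and Col22a1 at 1.78, 2.57, 2.64, 2.46 and 1.52 TPM overlapped the IF mice (log2 fold changes 0.22, 0.12 and 0.42). None of the related genes passed adjustment in limma, and at an unadjusted p under 0.05 there were 1 of 32 processing genes (Lox), 2 of 12 receptors (Antxr1, Cspg4) and 1 of 5 collagenases (Mmp14).

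Cells cultured with hCG were then compared with RU486 alone, the comparison that asks what the hCG-cultured cells did in these uteri. Few collagens were called. Col4a6 and the transmembrane collagen Col23a1 were higher than in IF mice, and Col6a4 was lower, so that both Col4a6 and Col6a4 lay between the IF and the control levels. These 3 of 40 collagens (2 higher, 1 lower) passed in limma, beside 13.6% of all genes (7.61% higher and 5.99% lower), and 10 of 40 had an unadjusted p under 0.05, beside 35% of all genes. The median was -0.0072 for collagens and 0.049 for all genes, with type VI at -0.39, fibrillar at -0.10, basement membrane at -0.055 and the other collagens at 0.057. Col6a4 was at 194, 109, 113, 112 and 131 TPM in PBMC-hCG mice. Replicate 1 was within the IF range of 151 to 277 TPM, the other 4 were below it, and all 5 were above the control mice (log2 fold change -0.65, SE 0.19, adjusted p = 0.0370 in limma). Col4a6 was at 25.6, 28.7, 33.6, 33 and 28.7 TPM, beside 18 to 33.6 TPM in IF mice. All PBMC-hCG mice were above all IF mice but replicate 3 and below all control mice (log2 fold change 0.46, SE 0.14, adjusted p = 0.0431 in limma). Col23a1 (NCBI gene 237759, chr11:51289679-51583925) was at 10.4, 6.12, 17.5, 7.23 and 8.21 TPM in IF mice and 11.4, 15.5, 17.6, 22.6 and 13 TPM in PBMC-hCG mice. Only IF replicate 3 lay above the lowest PBMC-hCG mouse (log2 fold change 0.75, SE 0.22, adjusted p = 0.0396 in limma). It was not called between IF and control mice (log2 fold change 0.045), where control mice were at 9.81, 8.44, 9.15, 10.6 and 7.07 TPM. The count of 3 rested on single mice, as did the calls among all genes. It was 0 without IF replicate 2, 4 or 5 or PBMC-hCG replicate 2, 3, 4 or 5, beside 0 to 0.182% of all genes, and in these 7 fits the log2 fold changes were -0.69 to -0.54 for Col6a4, 0.40 to 0.47 for Col4a6 and 0.60 to 0.82 for Col23a1. The count was 2 without IF replicate 1 (beside 12.5% of all genes), 11 without IF replicate 3 (27.1%, with Col4a6 at 0.62 and Col23a1 at 0.98), 6 without PBMC-hCG replicate 1 (22.3%) and 10 without control replicate 2 (beside 21.8% of all genes), which enters through the shared spread. With only these 2 groups fitted, the calls for Col4a6 (adjusted p = 0.0722 in limma) and Col23a1 (0.0778) ended. That for Col4a6 also ended without the variance trend (0.0509), and all 3 ended where genes above 0 TPM in at least 1 library were tested (0.0621 to 0.0692). By the study's own rule it was 0, beside 2.31% of all genes.

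The abundant chains were not called between PBMC-hCG and IF mice. Col6a1 was at 1517, 1111, 1065, 1043 and 1139 TPM and Col6a2 at 1680.2, 1107, 1072, 985 and 1114 TPM in PBMC-hCG mice. Replicate 1 stood far above the other 4, which were below every IF mouse in both genes. The log2 fold changes were -0.33 for Col6a1 (SE 0.15, adjusted p = 0.136 in limma) and -0.46 for Col6a2 (SE 0.22, adjusted p = 0.145). Col6a3 was at 73.2 to 179 TPM (log2 fold change -0.70, adjusted p = 0.145 in limma). Without control replicate 2, these 3 genes passed with the same fold changes, as did Col4a5, Col9a2, Col13a1 and Col26a1 (all higher, chosen after their values were seen). Col4a1 was at 576, 431, 506, 371 and 408 TPM, Col4a2 at 359, 258, 294, 224 and 244 TPM and Col18a1 at 361, 297, 333, 269 and 268 TPM. All 3 overlapped the IF mice, with log2 fold changes of -0.30, -0.36 and -0.00013. For the fibrillar chains they were -0.094 in Col3a1 (adjusted p = 0.824 in limma), -0.21 in Col1a1 (0.527) and -0.10 in Col1a2 (0.732), and for Col15a1 -0.093 (0.778). Leaving out both control replicate 2 and IF replicate 3 was an alternative chosen after seeing the data. In that fit Col4a1 (-0.44, adjusted p = 0.00921 in limma), Col4a2 (-0.52, 0.00596) and Col1a1 (-0.31, 0.0304) were called lower. Col3a1 did not pass there (-0.23, 0.0632). Without IF replicate 3, the further calls included Col4a5 (0.41, adjusted p = 0.0227 in limma), Col9a2 (1.16, 0.0144) and Col13a1 (0.64, 0.0318), all higher in PBMC-hCG mice. Col9a2 and Col13a1 were also called with a pseudocount of 1 (adjusted p = 0.0471 and 0.0449 in limma), among genes with a mean of at least 1 TPM (0.0449 and 0.0467) and without PBMC-hCG replicate 1 (0.0228 and 0.0359), Col9a2 with replicate number as a block (0.0332) and Col13a1 without the variance trend (0.0491). With all mice they were at 0.94 (0.0516) and 0.59 (0.0507). Among tissue markers, all 4 mesothelial genes (most abundant Upk3b) were called higher, their sums being 55, 47, 40.6, 45.3 and 58.5 TPM in IF mice and 70.2, 98.7, 69.5, 80.5 and 81.9 TPM in PBMC-hCG mice. Of the 7 stromal markers 3 rose, with sums of 2460.2, 2391, 2425, 2172 and 1937 TPM and 2471, 2869, 2866, 2514 and 2614 TPM. In addition, 1 epithelial and 1 endothelial marker rose, and of the 5 red cell markers 2 fell, with sums of 640.05 to 1802 TPM in IF and 342 to 878 TPM in PBMC-hCG mice. Their part in the collagen values was not tested. Few related genes passed, where 7.61% of all genes were called higher and 5.99% lower. Loxl4, a relative of Lox, fell from 1.12 to 2.24 to 0.552 to 0.941 TPM (log2 fold change -0.92, SE 0.19, adjusted p = 0.0258 in limma) as 1 of 32 processing genes. The receptors Antxr2 (0.44, adjusted p = 0.0437 in limma) and Antxr1 (0.17, 0.0469) rose among 12, the laminin-binding Nid2 (0.59, 0.0307) among 16 basement membrane partners and the protease Ctsk (0.26, 0.0475) among 5 collagenases. Of 10 proteoglycans none passed.

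PBMC-hCG and PBMC mice were compared directly, to ask what the hCG in the culture added. No collagen passed in limma, 0 of 40 beside 0.0107% of all genes. At an unadjusted p under 0.05 there were 5 of 40, beside 16.2% of all genes, with Col17a1 and Col23a1 higher in PBMC-hCG mice (all genes 8.66%) and Col5a3, Col6a1 and Col6a4 lower (all genes 7.51%). The median was -0.13 for collagens and 0.024 for all genes, and -0.37 for type VI and -0.22 for fibrillar collagens. Col23a1 was at 9.66, 11.6, 11.4, 13 and 9.86 TPM in PBMC mice, beside 11.4 to 22.6 TPM in PBMC-hCG mice, where PBMC-hCG replicate 1 was within the PBMC range and replicate 5 level with the highest PBMC mouse (log2 fold change 0.49, SE 0.22, adjusted p = 0.297 in limma). Col5a3 was at 51.6, 46.6, 51.9, 37.7 and 43.8 TPM in PBMC mice and 38.2, 33.5, 32.2, 24.1 and 35.7 TPM in PBMC-hCG mice. PBMC-hCG replicate 1 alone was above the lowest PBMC mouse (log2 fold change -0.51, SE 0.22, adjusted p = 0.294 in limma). For Col6a4, the log2 fold change was -0.44 (SE 0.19, adjusted p = 0.290 in limma), and for Col6a1 -0.33 (SE 0.15, adjusted p = 0.307 in limma), with PBMC-hCG replicate 1 within the PBMC range in both and replicate 5 in Col6a4 alone. Col17a1, the collagen of hemidesmosomes, was at 0.547, 0.791, 0.639, 0.779 and 0.747 TPM in PBMC mice and 1.11, 0.954, 1.08, 0.942 and 0.874 TPM in PBMC-hCG mice. It was the only collagen in which these groups did not overlap, beside 3.46% of all genes (log2 fold change 0.45, adjusted p = 0.283 in limma). Low TPM and the pseudocount of 0.1 draw this fold change toward 0.

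Uteri given RU486 and PBMCs were next compared with those of untreated mice. Col6a4, Col6a6 and Col5a3 were among the collagens called higher, and Col12a1, Col15a1 and Col24a1 among those called lower. Of 40 collagens, 14 passed in limma, 9 higher and 5 lower, beside 19.5% of all genes (12.8% higher and 6.7% lower), with a median of 0.25 beside 0.048 for all genes. In 11 collagens the groups did not overlap, beside 12.7% of all genes. Col6a6 was above all control mice in each PBMC mouse (log2 fold change 1.66, SE 0.27, adjusted p = 0.000250 in limma), as were Col6a4 (log2 fold change 1.56, SE 0.19, adjusted p = 1.39e-05 in limma) and Col5a3 (log2 fold change 1.11, SE 0.22, adjusted p = 0.00162 in limma). Col24a1 was at 2.15, 2.29, 0.839, 2.03 and 0.611 TPM, below all control mice (log2 fold change -1.98, SE 0.41, adjusted p = 0.00205 in limma). Col12a1 (log2 fold change -1.25, SE 0.28, adjusted p = 0.00341 in limma) and Col15a1 (log2 fold change -1.05, SE 0.20, adjusted p = 0.00126 in limma) were below all control mice but replicate 2. Without control replicate 2 these 6 fold changes were 1.49, 1.51, 0.82, -1.75, -1.54 and -1.30 in that order, and 19 collagens were called, 9 higher and 10 lower, beside 24.7% of all genes (14.2% and 10.6%). Of the basement membrane chains, Col4a3 was at 5.0, 3.41, 3.33, 3.15 and 3.53 TPM in PBMC mice, above all control mice (log2 fold change 1.0, SE 0.19, adjusted p = 0.00109 in limma), and Col4a6 was below them all (log2 fold change -0.72, SE 0.14, adjusted p = 0.00144 in limma). By the study's own rule 7 collagens were called, beside 3.34% of all genes. Beside control mice other than replicate 2, whose sums were 563 to 682 TPM for the epithelial, 400.4 to 497 TPM for the endothelial and 5017 to 8013 TPM for the myometrial markers, the PBMC mice were at 922 to 1210.5, 552 to 662 and 4037 to 5028 TPM, and Acta1 was at 334 to 369.9 TPM and 102 to 131 TPM. In the same order, stromal sums were 2173 to 2429.6 and 2449 to 2815 TPM and macrophage sums 999 to 1066 and 1112 to 1205 TPM. For ovary and oviduct they were 22.6 to 30.4 and 9.48 to 16.8 TPM. Of all these, only the myometrial sums overlapped. Most of each stromal sum was Vim (1262 to 1553 TPM in those control and 1904 to 2083 TPM in PBMC mice). Pdgfrb was higher as well, while Hoxa10 (250 to 257 and 103 to 170 TPM) and Hoxa11 (194 to 229 and 80.1 to 126 TPM) were lower. Pdgfra, Hand2 and Nr2f2 overlapped, so the sums do not show that stroma as a whole was higher. The part of these shifts in the collagen results was not tested. Of related genes, 2 of 32 processing genes rose and 3 fell, 7 of 12 receptors, 3 of 10 proteoglycans, 5 of 16 basement membrane partners and 2 of 5 collagenases rose, and none of these 4 lists had a fall.

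Uteri given RU486 and hCG-cultured cells, compared with untreated ones, had Col6a4, Col6a6, Col9a2 and Col23a1 among the collagens called higher and Col12a1, Col15a1 and Col24a1 among those called lower. Of 40 collagens, 18 passed in limma, 13 higher and 5 lower, beside 31.8% of all genes (20.2% higher and 11.6% lower). The median was 0.13 beside 0.076 for all genes. Col6a6 was at 9.79, 11.1, 11.9, 12.3 and 9.14 TPM, above every control mouse (log2 fold change 1.82, SE 0.27, adjusted p = 7.77e-05 in limma), and so was Col6a4 (log2 fold change 1.13, SE 0.19, adjusted p = 0.000228 in limma). Col9a2 (NCBI gene 12840, chr4:121039566-121055325), a chain of type IX collagen known from cartilage, was at 3.93, 2.10, 4.71, 6.07 and 1.96 TPM in control mice and 4.84, 8.83, 10.6, 9.22 and 7.41 TPM in PBMC-hCG mice. In IF mice it was at 4.59, 2.88, 7.72, 3.30 and 3.39 TPM and in PBMC mice at 6.36, 6.17, 5.10, 7.35 and 4.03 TPM. Of the PBMC-hCG mice, replicate 1 was within the control range and the others were above it (log2 fold change 1.19, SE 0.31, adjusted p = 0.00732 in limma). Col12a1 was at 5.85, 3.76, 4.77, 3.33 and 5.69 TPM, Col24a1 at 1.23, 1.79, 2.17, 2.60 and 2.52 TPM and Col15a1 at 135, 114, 106, 95.3 and 98.8 TPM. The first pair lay below all control mice (log2 fold change -1.71, SE 0.28, adjusted p = 0.000160 in limma; log2 fold change -1.50, SE 0.41, adjusted p = 0.00938 in limma), and Col15a1 below all but control replicate 2 (log2 fold change -1.25, SE 0.20, adjusted p = 0.000172 in limma). Without control replicate 2, 26 collagens were called, 12 higher and 14 lower, beside 40.2% of all genes (23.1% and 17.1%), and 17 of the 18 calls were kept. The gained calls included the main fibrillar chains, which were then lower in PBMC-hCG mice. Col3a1 went from -0.069 (adjusted p = 0.865 in limma) to -0.41 (0.0213), Col1a1 from -0.17 (0.602) to -0.47 (0.00623) and Col1a2 from -0.041 (0.893) to -0.30 (0.0199). With control replicate 2 kept, Col3a1 turned to between 0.011 and 0.026 without control replicate 1, 3, 4 or 5 or PBMC-hCG replicate 4, and Col1a2 to between 0.018 and 0.053 without control replicate 1, 3 or 5. The call for Col5a3 (0.60, adjusted p = 0.0457 in limma) was lost without control replicate 2 (0.32, 0.0620). The summed TPM of the fibrillar class was 4669 to 6238 in PBMC-hCG mice, beside 6901 to 7586 in the control mice other than replicate 2. In several lists of tissue markers and in Acta1, the same 4 control mice and the PBMC-hCG mice did not overlap either. Given in that order, sums were 563 to 682 and 968 to 1248 TPM for epithelium. For endothelium they were 400.4 to 497 and 626 to 737 TPM. Stromal sums were higher too (2173 to 2429.6 and 2471 to 2869 TPM), but most of each was Vim (1262 to 1553 and 1690 to 2117 TPM). Pdgfrb was higher as well, while Hoxa10 (250 to 257 and 165 to 205 TPM) and Hoxa11 (194 to 229 and 106 to 136 TPM) were lower. Pdgfra, Hand2 and Nr2f2 overlapped, so the sums do not show that stroma as a whole was higher. Mesothelial sums were 38.1 to 62.2 and 69.5 to 98.7 TPM, and lymphocyte sums 46.9 to 57.6 and 59.9 to 81.004 TPM. Lower in PBMC-hCG mice were myometrium (5017 to 8013 and 3367 to 4307 TPM) and Acta1 (334 to 369.9 and 73.7 to 109 TPM). So were ovary and oviduct (22.6 to 30.4 and 8.96 to 18.992 TPM). The part of these shifts in the collagen results was not tested. By the study's own rule 8 collagens were called, beside 4.74% of all genes, and in 12 the groups did not overlap, beside 18.3%. Of related genes, 3 of 32 processing genes rose and 8 fell, and 8 of 12 receptors, 3 of 10 proteoglycans, 5 of 16 basement membrane partners and 2 of 5 collagenases rose with no fall.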

How the data were processed

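Uterine RNA of 20 mice was compared in 4 groups of 5, 1 library per mouse. The deposited values are TPM, made by the authors, whose notes name Trimmomatic, HISAT2, StringTie and the mm10 genome without versions. The libraries were stranded, but whether strands were counted apart is not given in the sources used here, so reads of genes on the opposite strand, which overlap many collagens (Col4a1, Col6a4, Col15a1 and Col18a1 among them), may be included. Testing was limited to genes with a TPM above 0 in each of the 20 libraries, since the authors kept genes with reads in every sample. Their count-based test cannot be run on TPM. In its place, log2(TPM + 0.1) of all groups was fitted in limma 3.58.1 under R 4.3.3, letting the variance follow the mean level, with Benjamini-Hochberg adjustment over all genes. The steps were tested on simulated data. Genes given in full were the 3 most abundant fibrillar and 2 most abundant collagens of each other class, and per comparison the 3 largest rises and falls that passed (unadjusted where none did) with a mean of at least 1 TPM. Of related genes, the 2 largest rises and falls per list were named. Members and lists were chosen with earlier results of these data known. Alternatives were other pseudocounts, filters, scalings, fits and thresholds, and each mouse left out. Figures were drawn with matplotlib 3.10.9 in python 3.11.15.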

Additional observations from a re-analysis of the deposited data

Results flagged for a closer look

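Values are given here where the gap between a mouse and the next of its group of 5, divided by the range of the group, was above 0.71 (Dixon's criterion). Chance passes this in about 1 in 20 independent groups. The groups here share the same mice, and class sums contain named genes, so their count cannot be set against that rate. Of 100 groups of named genes and class sums, 24 passed it, 14 of them through control replicate 2. That mouse was the lowest control for Col3a1 at 928 (nearest 2990.1), Col1a2 at 759.8 (nearest 1752), Col1a1 at 665 (nearest 1718), Col4a1 at 189 (nearest 449) and Col4a2 at 119 (nearest 289.7), all in TPM. It was also the lowest for Col6a2 at 549 (nearest 1256), Col6a1 at 659 (nearest 1127), Col12a1 at 6.70 (nearest 17.5) and Col5a3 at 9.53 (nearest 24.7) TPM, and the highest for Col24a1 at 11.3 (nearest 5.31) TPM. Its summed TPM was 2539.7 (nearest 6901) for fibrillar, 401 (nearest 859.6) for basement membrane, 1319 (nearest 2656) for type VI and 420.3 (nearest 838) for other collagens.

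PBMC-hCG replicate 1 was the highest of its group for Col6a2 at 1680.2 (nearest 1114), Col6a1 at 1517 (nearest 1139), Col6a4 at 194 (nearest 131) and Col4a3 at 5.48 (nearest 3.55) TPM, and for the type VI sum at 3582 (nearest 2494) TPM. PBMC replicate 1 was the highest of its group for Col4a3 at 5.0 (nearest 3.53) TPM. PBMC replicate 4 was the lowest for Col4a2 at 289.7 (nearest 354) TPM and for the basement membrane sum at 869 (nearest 1005) TPM. IF replicate 3 was the highest IF mouse for Col24a1 at 3.23 (nearest 1.01) TPM and the lowest for the sum of other collagens at 559 (nearest 691) TPM.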

How the results depend on the processing

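For 64 gene results under 20 alternatives each (1280 values), 1164 kept direction and side of the threshold, 39 newly passed, 42 no longer passed and 35 turned direction. For IF against control, 17 collagens were called (beside 21.9% of all genes), 11 with only those groups fitted (13.2%), 8 by the study's rule (4.03%) and 13 to 18 with a mouse left out (17.8 to 26.8%). For PBMC-hCG against IF, 3 were called (beside 13.6% of all genes), 5 with a pseudocount of 1 (14.1%), 0 with genes above 0 TPM in at least 1 library (2.65%), 5 with genes of a mean of at least 1 TPM (17.6%), 0 by the study's rule (2.31%) and 0 to 11 with a mouse left out (beside 0 to 27.1% of all genes). Without both control replicate 2 and IF replicate 3, an alternative chosen after seeing the data, 20 were called there (beside 35.8% of all genes) and 28 for PBMC-hCG against control (42.6%). The study's rule gave 7 for PBMC (3.34%) and 8 for PBMC-hCG (4.74%) against control, where leaving out a mouse gave 11 to 19 (beside 15.8 to 24.7% of all genes) and 15 to 26 (25.4 to 40.2%). PBMC against IF and PBMC-hCG against PBMC stayed at 0 in each alternative run. With replicate number as a block, the counts were 17, 0, 4, 0, 15 and 18 for IF against control, PBMC against IF, PBMC-hCG against IF, PBMC-hCG against PBMC, PBMC against control and PBMC-hCG against control (beside 22.2, 0, 17.2, 0.0107, 19.4 and 32.5% of all genes). Log2 values less their group means correlated between mice of equal number at a median of -0.0097 over 30 pairs (-0.25 to 0.46). The highest was that of IF and PBMC replicate 5. Mice of unequal number had a median of 0.0088 over 120 pairs (-0.41 to 0.57). Equal numbers thus did not correlate more in general, but a median cannot exclude that some numbers pair mice. Between IF and control, Col14a1 (0.0056) was at -0.025 with median-of-ratios scaling, -0.049 with quantile normalization and -0.25 without both mice, and Col3a1 at -0.0057 with median-of-ratios scaling and -0.18 without both. Without both, Col1a1 was at -0.16, Col1a2 at -0.13 and Col6a3 at -0.14. Col18a1 was at 0.091 between PBMC-hCG and IF with quantile normalization. With a mouse left out, the ranges between IF and control were -0.40 to 0.15 in Col14a1, -0.32 to 0.16 in Col3a1, -0.26 to 0.15 in Col1a1, -0.20 to 0.16 in Col1a2 and -0.34 to 0.24 in Col6a3. Between PBMC-hCG and IF they were -0.083 to 0.051 in Col18a1, -0.23 to -0.013 in Col3a1 and -0.31 to -0.14 in Col1a1. They were -0.17 to -0.050 in Col1a2 and -0.20 to -0.031 in Col15a1 there. Between PBMC-hCG and control they were -0.41 to 0.026 in Col3a1 and -0.30 to 0.053 in Col1a2. The cause was not tested. Depth is unknown, so what it limits at low TPM cannot be given.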
